A study of Mus musculus with 8 samples.

Results

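The 2 cell fractions of a co-culture were compared: DA3, a mouse mammary adenocarcinoma line, and MBA-15, a mouse stromal line of pre-osteoblastic character. The members are the samples titled DA3 co-culture (2 arrays) and MBA-15 co-culture (2 arrays), 4 of the 8 arrays of the series. MBA-15 cells had been seeded at 20000 per cm2, and DA3 cells were added on top of the attached layer the next day at 13000 per cm2. The sample descriptions name 24 h of culture, whereas the growth protocol allows 24 or 48 h. Both lines shared the same serum-containing medium. The mixed cells were then dispersed with trypsin and parted with antibody-bound magnetic particles against EpCAM (CD326), an adhesion protein of epithelial cells. The DA3 fraction is what the magnet held, and the MBA-15 fraction is what it left. RNA was hybridised to Affymetrix MoGene 1.0 ST arrays, which give a log2 expression level per probe set.

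The 2 DA3 alone arrays, from DA3 cells cultured without MBA-15, served as the other end against which the line difference in co-culture was set. The descriptions of all 4 arrays titled alone carry the word mix and do not say what was mixed, so DA3 alone is used here as a label. The descriptions also hold an assay number, which they do not explain. It was 4 and 3 for the MBA-15 co-culture and DA3 alone arrays and 3 and 5 for the DA3 co-culture arrays. Array medians ran from 4.479 to 4.642 over the series. Only 2 arrays stand behind each level. The labels do not tell whether these were separate cultures, so the p-values reflect only how far these samples lie apart, and that spread may be technical.

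Carcinoma cells that settle beside bone stroma meet it through secreted growth factors and cytokines, their membrane receptors, proteases that cut matrix and precursors, and the matrix itself. Ligands of the EGF, FGF and PDGF families act on receptor tyrosine kinases. Integrins are paired adhesion receptors for collagens, laminins and fibronectin. Epithelial cells typically lie on laminin-rich basement membrane, while stromal cells lay down fibrillar collagen, fibronectin and versican.

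The labels of the fractions were checked against their markers first. Epcam itself was used to part the cells, so its level is no result: it stood at 9.30 and 9.38 in the DA3 fraction and at 5.58 and 5.19 in the MBA-15 fraction. On the arrays labelled MBA-15 alone it was 8.45 and 9.25, against their label. Those arrays enter no comparison here and add only to the common estimate of the spread. Of 31 epithelial markers, 25 were higher in the DA3 fraction and 0 in the MBA-15 fraction, and Epcam itself is counted among the 31 and the 25. Of 32 measured stromal markers, 21 were higher in the MBA-15 fraction and 0 in the DA3 fraction. The epithelial and stromal marker lists share genes with the lists below, among them Spint1, Mmp2, Pdgfra and Col5a2. This check and those later results are therefore not independent. None of 19 leukocyte markers was called in either direction, and their mean level lay between 3.84 and 4.08 on the 4 arrays. Of 12 endothelial markers, Cldn5 and Egfl7 were higher in DA3 and Flt1 in MBA-15. Among 12 markers of fat and muscle, Pparg, a regulator of fat cell formation, was the only one called, higher in MBA-15. The shares over all genes were 4.48% higher in DA3 and 8.28% higher in MBA-15. Beside the latter share, the calls of Flt1 and Pparg in lists of 12 markers do not stand out. Whether those of Cldn5 and Egfl7 exceed the share in DA3 was not tested. A call here means an adjusted p under 0.05 in limma, a linear model fitted across all genes, with Benjamini-Hochberg adjustment over 19938 genes.

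Over all genes, 894 (4.48%) were higher in the DA3 fraction and 1651 (8.28%) in the MBA-15 fraction, together 12.8% of the genes tested. The split depended on scaling: with quantile normalization applied once more it was 1281 against 1392, or 47.9% higher in DA3 in place of 35.1%. Without MBA-15 co-culture array 2 the DA3 side held 447 genes, and without either DA3 alone array 582. With only the 4 co-culture arrays in the fit the counts were 403 and 720. Within assay 3, which holds 1 array of each fraction, the 2545 called genes differed by a median of 1.35 log2 units in size, beside 1.33 over all arrays, and these 2 arrays had also served to call them. For 878 of the 2545 (34.5%) the lower mean lay under 4.479, the lowest array median. Low signals on such arrays are compressed, and such differences are best read as lower bounds.

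Differences are given as DA3 co-culture minus MBA-15 co-culture in log2 units with the standard error from limma, so a positive value is higher in DA3. Several of the 10 genes furthest apart on the DA3 side were of epithelial cells, and Aqp8, Mapk13 and Atp9a were also among the 10. Krt18, a keratin of simple epithelia, was at 10.35 and 10.91 in the DA3 fraction and at 5.79 and 5.91 in the MBA-15 fraction, a difference of 4.78 ± 0.19 (adjusted p = 0.000345). Cldn7, a tight-junction claudin, was at 9.20 and 9.21 against 4.69 and 4.52. Sfn, the epithelial 14-3-3 sigma protein, differed by 4.77 ± 0.34 and Esrp1, a splicing regulator of epithelial cells, by 4.41 ± 0.41. On the MBA-15 side Zeb1 and Zeb2, repressors of epithelial genes, stood at 7.46 and 7.48 and at 6.96 and 7.33, against 4.88 and 4.82 and 4.27 and 4.19 in the DA3 fraction. These last 2 genes were picked after their values were seen.

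Zeb1 and Zeb2 are known to bind the letters CACCTG, 1 form of the E-box CANNTG. These letters were looked for on both strands in the 250 bases before each gene start (RefSeq, GRCm38.p6). They occurred in 28% of 943 windows of genes higher in DA3, in 12.4% of 1721 windows of genes higher in MBA-15, in 16.8% of windows of genes not called and in 17.2% of all 32851 windows of the table. Windows were split into 3 equal bands of GC content. Shares for DA3-high, MBA-15-high and uncalled genes were 32.2, 12.3 and 16.9% in the top band. They were 28.3, 13.6 and 19.1% in the middle band and 20.8, 11.2 and 14.4% in the bottom one. Epithelial markers, with Epcam counted among them, held them in 13 of 22 windows and stromal markers in 0 of 24. A match is a description of the letters and not a shown binding site, and no test was made. Windows of the separation antigen Epcam and of Cldn7 and Krt18 are shown as examples picked because they carry a match. Those of Sfn and Esrp1 are not shown. CACCTG or its reverse complement CAGGTG is in capitals. All 3 windows lie on the plus strand, at chr17:87635729-87635978 for Epcam, chr11:69965171-69965420 for Cldn7 and chr15:102027966-102028215 for Krt18. The other of the 2 start windows of Cldn7 held 0 matches.
Epcam: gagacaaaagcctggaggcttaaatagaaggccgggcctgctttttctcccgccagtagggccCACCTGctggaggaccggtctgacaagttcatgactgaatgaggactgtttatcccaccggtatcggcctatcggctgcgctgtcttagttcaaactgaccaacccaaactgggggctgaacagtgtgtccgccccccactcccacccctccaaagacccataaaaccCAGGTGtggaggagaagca
Cldn7: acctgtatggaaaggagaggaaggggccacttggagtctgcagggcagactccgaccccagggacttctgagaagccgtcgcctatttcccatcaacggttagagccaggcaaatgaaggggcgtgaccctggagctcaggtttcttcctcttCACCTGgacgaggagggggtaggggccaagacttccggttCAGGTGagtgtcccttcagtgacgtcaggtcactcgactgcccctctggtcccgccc
Krt18: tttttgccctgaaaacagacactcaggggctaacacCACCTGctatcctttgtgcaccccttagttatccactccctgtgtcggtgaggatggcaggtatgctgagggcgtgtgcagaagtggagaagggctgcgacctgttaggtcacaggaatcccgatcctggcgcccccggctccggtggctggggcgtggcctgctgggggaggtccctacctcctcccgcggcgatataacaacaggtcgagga

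Ligands were divided between the fractions. Of 161 measured ligands and secreted antagonists, 27 (16.8%) were higher in DA3 and 31 (19.3%) in MBA-15, beside 4.48 and 8.28% of all genes, and the median difference was 0.08 beside 0.07 for all genes. Without the arrays labelled MBA-15 alone in the fit the counts were 23 and 32, and with the co-culture arrays only 15 and 26. Growth factors leaned to the stromal side, with 13 of 40 higher there and 5 in DA3. Wnt, Notch and guidance ligands leaned to the carcinoma side, with 11 of 46 higher in DA3 and 3 in MBA-15. Cytokines and chemokines split into 9 and 10 of 48, and the TGF-beta family with its antagonists into 2 and 5 of 27.

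Ereg, the EGF-family ligand epiregulin, was among the most uneven. Its level was 8.01 and 9.12 in the MBA-15 fraction, 4.47 and 4.38 in the DA3 fraction and 3.65 and 3.59 in DA3 alone. The fractions lay far apart, by -4.14 ± 0.40 (adjusted p = 0.00163). Nrg1, a neuregulin that acts through ERBB3, was at 7.30 and 7.51 in MBA-15 against 4.87 and 4.40 in DA3 (-2.77 ± 0.19). Fgf7 and Fgf10, stromal FGFs that act on epithelial receptors, differed by -3.21 ± 0.31 and -2.72 ± 0.21. Hgf, the MET ligand, was at 6.95 and 6.79 against 3.96 and 3.88, and the DA3 arrays lay under the lowest array median. Vegfd and Csf1, factors of lymphatic vessels and macrophages, differed by -3.15 ± 0.23 and -2.26 ± 0.36. Kitl, the KIT ligand, differed by -2.58 ± 0.42.

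The growth factors of the DA3 fraction were other members of the same families. Hbegf, a heparin-binding EGF ligand, was at 9.96 and 9.08 in DA3 and at 7.40 and 7.14 in MBA-15 (2.25 ± 0.30, adjusted p = 0.0054). Pdgfb, a PDGF chain, was at 6.83 and 5.74 against 3.60 and 3.76 (2.60 ± 0.42). Tgfa, another EGF ligand, was at 7.10 and 5.94 against 4.42 and 4.37. Its call was lost on removing any of 5 arrays, both MBA-15 co-culture arrays, both DA3 alone arrays or DA3 co-culture array 1, with an adjusted p of up to 0.0906. Bmp7, a bone morphogenetic protein, was higher in DA3 by 2.68 ± 0.24, while Bmp4 was higher in MBA-15 (-1.92 ± 0.23), as were the BMP antagonist Grem1 (-2.24 ± 0.27), the modulator Bmper (-2.27 ± 0.22) and the follistatin-like Fstl1 (-3.33 ± 0.20).

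The chemokines that draw monocytes belonged to the stromal fraction. Ccl2 was at 9.65 and 9.93 in MBA-15 and at 6.13 and 5.42 in DA3, a difference of -4.01 ± 0.32 (adjusted p = 0.000854). Ccl7, Ccl8 and Ccl5 differed by -3.33 ± 0.37, -3.30 ± 0.51 and -2.53 ± 0.26. Il6, the inflammatory cytokine, was at 6.41 and 6.72 in MBA-15 and at 3.54 and 3.69 in DA3, where it lay under the lowest array median (-2.95 ± 0.21). Cxcl10, an interferon-induced chemokine, was at 8.29 and 6.56 in MBA-15 against 4.28 and 4.86. Its arrays were far apart, and removing MBA-15 co-culture array 1 or any DA3 array ended the call, with an adjusted p of up to 0.133. Other genes known as interferon-induced were among the 10 furthest apart on this side: Usp18 differed by -3.74 ± 0.50, Irgm1 by -3.97 ± 0.40 and Trim30a by -4.04 ± 0.31.

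Other cytokines and 1 chemokine were higher in the DA3 fraction. Il24, of the IL-10 family, was at 9.89 and 9.96 in DA3 and at 5.39 and 6.01 in MBA-15 (4.23 ± 0.52, adjusted p = 0.00403). Il23a, the p19 chain of IL-23, differed by 3.63 ± 0.17 and Csf3, the granulocyte colony-stimulating factor, by 3.31 ± 0.39. Cxcl16, a membrane-bound chemokine, was at 8.16 and 8.58 against 5.17 and 5.56. Lif, the leukemia inhibitory factor, was at 7.79 and 7.30 against 4.84 and 4.86 (2.70 ± 0.20), and Tslp, an epithelial alarm cytokine, differed by 2.69 ± 0.43.

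Among Wnt and guidance ligands, Wnt7a was at 7.07 and 7.08 in DA3 and at 4.03 and 3.90 in MBA-15 (3.11 ± 0.26), and Wnt7b at 7.03 and 6.91 against 3.91 and 3.82 (3.10 ± 0.23). The semaphorin Sema3f was higher in DA3 by 2.44 ± 0.31, whereas Sema3a was higher in MBA-15 (-2.69 ± 0.42). Slit2, a ligand of ROBO receptors, was at 9.15 and 9.43 in MBA-15 and at 5.63 and 4.70 in DA3 (-4.12 ± 0.33). Dkk3, a secreted dickkopf-family protein, differed by -2.02 ± 0.26.

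**Figure D1:**
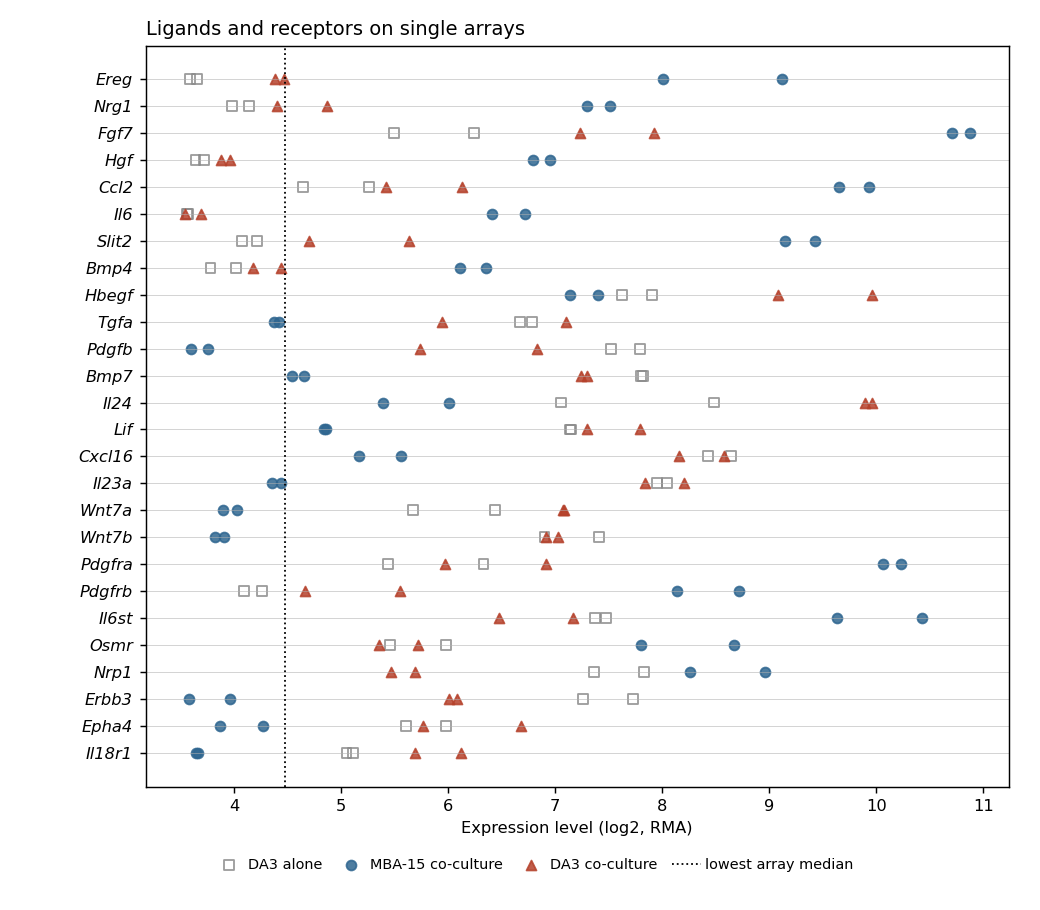
Expression level (log2, horizontal axis) of 26 named ligands and receptors on each of 6 arrays: DA3 co-culture (triangles), MBA-15 co-culture (circles) and DA3 alone (open squares); the dotted line is the lowest array median, 4.479. The circles of Ereg, Ccl2 and Slit2 lie right of the triangles, by -4.14, -4.01 and -4.12 as DA3 minus MBA-15, while those of Il24 lie left of them, by 4.23.

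Of 170 receptors measured, 36 (21.2%) were higher in MBA-15 and 19 (11.2%) in DA3, beside 8.28 and 4.48% of all genes, and the median difference was -0.04 beside 0.07. The stromal side thus held more calls, as it did over all genes. Without the arrays labelled MBA-15 alone the counts were 35 and 19, and with the co-culture arrays only 19 and 9. By list, 7 of 40 receptor tyrosine kinases were higher in MBA-15 and 5 in DA3, 13 and 4 of 57 cytokine, chemokine and TGF-beta receptors, and 14 and 5 of 53 Wnt, Notch, guidance and other surface receptors. Of 20 integrins, 2 were higher in MBA-15 and 5 in DA3.

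Both PDGF receptors lay on the stromal side. Pdgfra was at 10.06 and 10.23 in MBA-15 and at 6.91 and 5.97 in DA3 (-3.71 ± 0.43, adjusted p = 0.00329), and Pdgfrb at 8.72 and 8.14 against 5.55 and 4.66 (-3.33 ± 0.31). Il6st, the gp130 chain shared by the IL-6 family receptors, was at 10.43 and 9.63 against 7.17 and 6.47 (-3.21 ± 0.32), and its partners Osmr and Lifr differed by -2.70 ± 0.36 and -1.34 ± 0.16. The TGF-beta co-receptors Tgfbr3 and Eng differed by -3.06 ± 0.34 and -2.13 ± 0.20. Nrp1 and Nrp2, co-receptors for semaphorins and VEGF, differed by -3.03 ± 0.40 and -2.28 ± 0.34, and Plxna2, a semaphorin receptor, by -3.01 ± 0.30. Sdc2, a heparan sulfate proteoglycan, and Lpar1, a lysophosphatidic acid receptor, differed by -3.01 ± 0.17 and -2.60 ± 0.13.

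In the DA3 fraction Erbb3, the neuregulin receptor, was at 6.08 and 6.01 against 3.58 and 3.96 in MBA-15 (2.27 ± 0.50, adjusted p = 0.0312). Removing any 1 of the co-culture or DA3 alone arrays raised the adjusted p over the threshold, to at most 0.113, while the difference stayed between 2.08 and 2.47. Epha1, an ephrin receptor, differed by 1.44 ± 0.20. Il18r1, a chain of the IL-18 receptor, was at 6.12 and 5.69 against 3.64 and 3.66 (2.25 ± 0.17), and Il17re, an IL-17 receptor chain of epithelia, differed by 1.80 ± 0.17. Cd44, the hyaluronan receptor, and Sdc1, a syndecan of epithelial cells, differed by 1.69 ± 0.18 and 1.44 ± 0.21.

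The integrin chains called were divided. Itgb4, the beta chain of the laminin receptor of hemidesmosomes, was at 8.51 and 7.57 in DA3 and at 4.67 and 4.44 in MBA-15 (3.48 ± 0.33, adjusted p = 0.00159). Itga2, an alpha chain of a collagen receptor, was at 8.49 and 7.58 against 4.22 and 5.01 (3.42 ± 0.36). Itga7, a laminin-binding alpha chain, differed by 2.28 ± 0.31, and Itgb6, an epithelial chain known to activate TGF-beta, by 1.86 ± 0.22. Itga5, the alpha chain of the fibronectin receptor, was at 8.76 and 8.55 in MBA-15 and at 6.24 and 5.28 in DA3 (-2.90 ± 0.31). Itga1, an alpha chain of a collagen and laminin receptor, was at 4.08 and 4.32 in MBA-15 and at 3.69 and 3.65 in DA3 (-0.53 ± 0.13). Its call ended on removal of any array but MBA-15 co-culture array 1, with an adjusted p of up to 0.174.

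Ligand and receptor genes were then set side by side for 72 listed pairs, of which 59 had both genes on the array. Both genes were called in 16 pairs, 1 gene in 23 and neither in 20. The pairs share genes, with 54 ligands and 51 receptors among the 59, so they are not independent of each other. In 6 pairs the ligand was higher in one fraction and the receptor in the other. In 5 of these the ligand was on the DA3 side: Pdgfb and Pdgfrb (2.60 and -3.33), Lif and Lifr (2.70 and -1.34), Hbegf and Egfr (2.25 and -0.96), Tgfa and Egfr (2.13 and -0.96), and the Notch ligand Dll1 with Notch1 (0.89 and -0.91). Nrg1 and Erbb3 (-2.77 and 2.27) ran from MBA-15 to DA3. Receptors leaned to MBA-15 whatever the ligand did. Where the ligand was higher in MBA-15, the receptor was higher in MBA-15 in 8 pairs and in DA3 in 1. With the ligand not called, these counts were 7 and 2. Of all genes, 8.28% were higher in MBA-15 and 4.48% in DA3. The direction of the 6 pairs is therefore not read as a result about the pairs. Egfr, at 6.10 and 6.59 in MBA-15 and 5.50 and 5.28 in DA3, was close to the threshold (adjusted p = 0.0485). Its call ended without MBA-15 co-culture array 2, either DA3 co-culture array or either DA3 alone array, with an adjusted p of up to 0.186. Dll1 lost its call without MBA-15 co-culture array 2 or DA3 co-culture array 1, with an adjusted p of up to 0.0851.

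In 8 pairs both genes were higher in MBA-15, among them Sema3a and Nrp1 (-2.69 and -3.03), Fgf7 and Fgfr2 (-3.21 and -1.41) and Ereg and Egfr. In 2 pairs both were higher in DA3: Lama5 with Itga3 (3.17 and 1.48) and Efna1 with Epha2 (1.83 and 1.49). Fgfr2 was at 5.91 and 4.86 against 3.87 and 4.08, and its call ended on removal of any array but MBA-15 co-culture array 2, with an adjusted p of up to 0.133. Itga3, Efna1 and Epha2 all lost their calls without MBA-15 co-culture array 2, with adjusted p of 0.0767, 0.0781 and 0.1, and Itga3 and Epha2 also without DA3 co-culture array 1. For Hgf and its receptor Met the ligand differed by -2.95 and the receptor, by 0.20, was not called. Ccl2 and Slit2 had receptors, Ccr2 (0.39) and Robo1 (0.38), that were not called either. These are RNA levels of parted cells and do not show that a ligand reached its receptor.

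**Figure D2:**
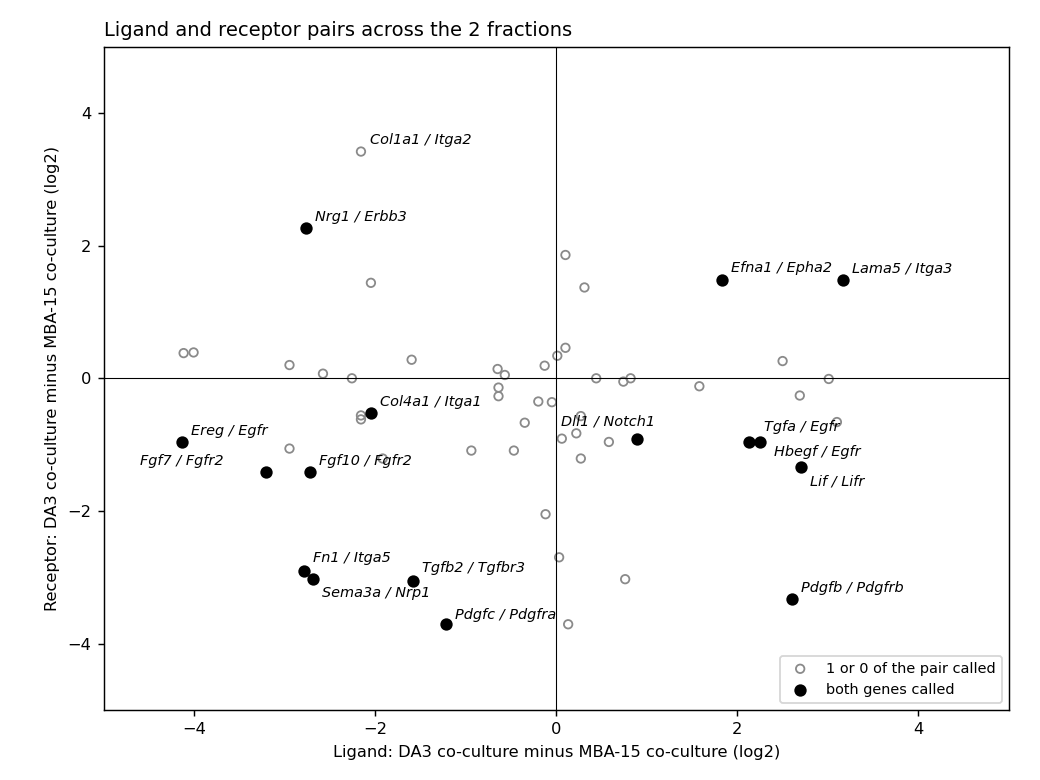
Each point is 1 of 59 pairs, with the difference of the ligand gene on the horizontal axis and of the receptor gene on the vertical axis (DA3 co-culture minus MBA-15 co-culture, log2); filled points are the 16 pairs with both genes called. The lower right holds ligands high in DA3 with receptors high in MBA-15, such as Pdgfb and Pdgfrb at 2.60 and -3.33, and the upper left holds Nrg1 and Erbb3 at -2.77 and 2.27.

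Of 91 proteases measured, 13 (14.3%) were higher in DA3 and 16 (17.6%) in MBA-15, beside 4.48 and 8.28% of all genes. The median difference was 0.06 beside 0.07 for all genes. The counts were 13 and 13 without the arrays labelled MBA-15 alone and 12 and 10 with the co-culture arrays only. Of 45 metalloproteinases, 9 were higher in MBA-15 and 2 in DA3. Of 46 serine, cysteine and carboxypeptidase enzymes, 11 were higher in DA3 and 7 in MBA-15.

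Mmp2, a gelatinase, was at 8.57 and 8.54 in the MBA-15 fraction and at 5.11 and 5.33 in the DA3 fraction (-3.33 ± 0.16, adjusted p = 0.000345). Mmp19, another matrix metalloproteinase, was at 6.70 and 5.98 against 3.95 and 3.89 (-2.42 ± 0.27). Adam19, a membrane-bound sheddase, and Adamts12, a secreted ADAMTS enzyme, differed by -2.15 ± 0.35 and -1.63 ± 0.11. Mmp10, stromelysin 2, ran the other way, at 8.01 and 7.13 in DA3 against 5.04 and 5.49 (2.30 ± 0.35). C1s1, a complement protease, was at 6.91 and 5.80 in MBA-15 and 3.94 and 4.02 in DA3 (-2.38 ± 0.35), and its call ended once the fit held assay number as a term or used co-culture arrays only.

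Several serine proteases known from epithelia were higher in the DA3 fraction, though Tmprss2 (0.75) and Tmprss4 (0.76), membrane serine proteases of epithelia too, were not called. St14, matriptase, was at 8.82 and 8.31 against 4.59 and 4.05 (4.25 ± 0.31, adjusted p = 0.000728), and Prss8, prostasin, at 6.92 and 7.69 against 3.97 and 3.93 (3.36 ± 0.40). Both also stand in the list of epithelial markers. Tmprss11e and Prss22, serine proteases of epithelia, differed by 3.88 ± 0.37 and 3.83 ± 0.38. The kallikreins Klk10 and Klk6 differed by 3.80 ± 0.31 and 1.81 ± 0.19. Plau, urokinase, was at 10.48 and 9.75 against 8.04 and 7.19 (2.50 ± 0.41), with an adjusted p of 0.0518 when MBA-15 co-culture array 2 was left out. Ctsh, a cathepsin, differed by 3.32 ± 0.28. Cpa4, a carboxypeptidase, was at 6.49 and 6.30 against 3.84 and 3.95 (2.50 ± 0.13).

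Of 26 protease inhibitors, 5 (19.2%) were higher in DA3 and 8 (30.8%) in MBA-15, beside 4.48 and 8.28% of all genes. Their median difference was -0.44 beside 0.07 for all genes. Without the arrays labelled MBA-15 alone, or with the co-culture arrays only, the counts were 5 and 7. Spint1 and Spint2, membrane inhibitors of matriptase and prostasin, were high in the fraction that held those enzymes. Spint2 was at 9.11 and 9.40 in DA3 and at 5.53 and 4.77 in MBA-15 (4.11 ± 0.28), and Spint1 differed by 3.30 ± 0.19. Serpinb5, maspin, was at 7.95 and 9.19 against 4.13 and 5.23 (3.89 ± 0.49). Serpinb2, an inhibitor of urokinase, was at 9.39 and 9.19 against 5.37 and 6.27 (3.47 ± 0.37). In MBA-15 Serpinb9b and Serpinb6b, intracellular serpins, differed by -3.34 ± 0.44 and -2.58 ± 0.24 and Pi15, a secreted peptidase inhibitor, by -2.57 ± 0.25. Timp3, a tissue inhibitor bound to matrix, was at 9.33 and 8.39 in MBA-15 and 6.83 and 7.59 in DA3 (-1.65 ± 0.37). It lost its call on removal of any array but MBA-15 co-culture array 2 and DA3 co-culture array 2, with an adjusted p of up to 0.111.

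Of 125 matrix genes measured, 33 (26.4%) were higher in MBA-15 and 11 (8.80%) in DA3, beside 8.28 and 4.48% of all genes. Their median difference was -0.19 beside 0.07 for all genes. The counts were 37 and 11 without the arrays labelled MBA-15 alone and 22 and 9 with the co-culture arrays only. Of 27 collagens, 10 were higher in MBA-15 and 1 in DA3, and of 59 matrix glycoproteins and proteoglycans, 15 and 3. Of 20 laminin and basement membrane genes, 5 were higher in DA3 and 2 in MBA-15.

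Vcan, the proteoglycan versican, had the largest difference on this side of all named genes. It was at 10.98 and 10.72 in MBA-15 and at 6.50 and 5.95 in DA3 (-4.63 ± 0.36, adjusted p = 0.000852). Nid1, the basement membrane linker nidogen, was at 9.23 and 9.49 against 6.00 and 4.47 (-4.12 ± 0.49), and Ogn, a small leucine-rich proteoglycan, differed by -4.05 ± 0.27. Among collagens, Col5a2 was at 8.86 and 8.77 against 5.67 and 5.11 (-3.43 ± 0.20), and Col12a1, Col6a3, Col3a1 and Col1a2 differed by -3.47 ± 0.33, -2.89 ± 0.37, -2.87 ± 0.24 and -2.75 ± 0.36. Col1a1, the other chain of type I collagen, was at 11.41 and 10.31 against 9.61 and 7.78 and did not pass (-2.16 ± 0.60, adjusted p = 0.0663). Fn1, fibronectin, was at 11.52 and 10.36 against 9.06 and 7.24 (-2.79 ± 0.68), and its call ended on removal of any array but DA3 co-culture array 1, with an adjusted p of up to 0.16. The collagen cross-linkers Lox and Loxl1 differed by -2.84 ± 0.37 and -2.33 ± 0.26, and P4ha1 and P3h1, which hydroxylate proline in collagen, by -2.10 ± 0.14 and -1.78 ± 0.13.

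Matrix genes higher in the DA3 fraction included laminin chains. Lamb3, a chain of laminin 332, was at 9.24 and 8.60 in DA3 and at 4.76 and 4.81 in MBA-15 (4.13 ± 0.25, adjusted p = 0.000471). Its partner chain Lama3 was at 7.24 and 7.21 against 4.35 and 4.85 (2.63 ± 0.22), and Lama5, another laminin alpha chain, at 9.15 and 8.30 against 5.89 and 5.22 (3.17 ± 0.37). Npnt, nephronectin, and Col18a1, a basement membrane collagen, differed by 2.61 ± 0.33 and 1.33 ± 0.20. The enzyme P3h2, a prolyl 3-hydroxylase, differed by 2.37 ± 0.31 where its relative P3h1 ran the other way. Pcolce2, an enhancer of procollagen processing, differed by 2.80 ± 0.40, and its relative Pcolce by -1.46 ± 0.25. Without DA3 co-culture array 2 the adjusted p of Pcolce was 0.0512. Ccn2, a matricellular protein, differed by 1.84 ± 0.43, and lost its call without MBA-15 co-culture array 2 or either DA3 co-culture array, with an adjusted p of up to 0.152. Basement membrane genes were also found on the MBA-15 side, with Nid1 above, Col4a1, a type IV collagen chain, at -2.05 ± 0.27, and Lamc1, a laminin gamma chain, at -1.76 ± 0.33. Lamc1 lost its call without either MBA-15 co-culture array or DA3 co-culture array 2, with an adjusted p of up to 0.0805.

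**Figure D3:**
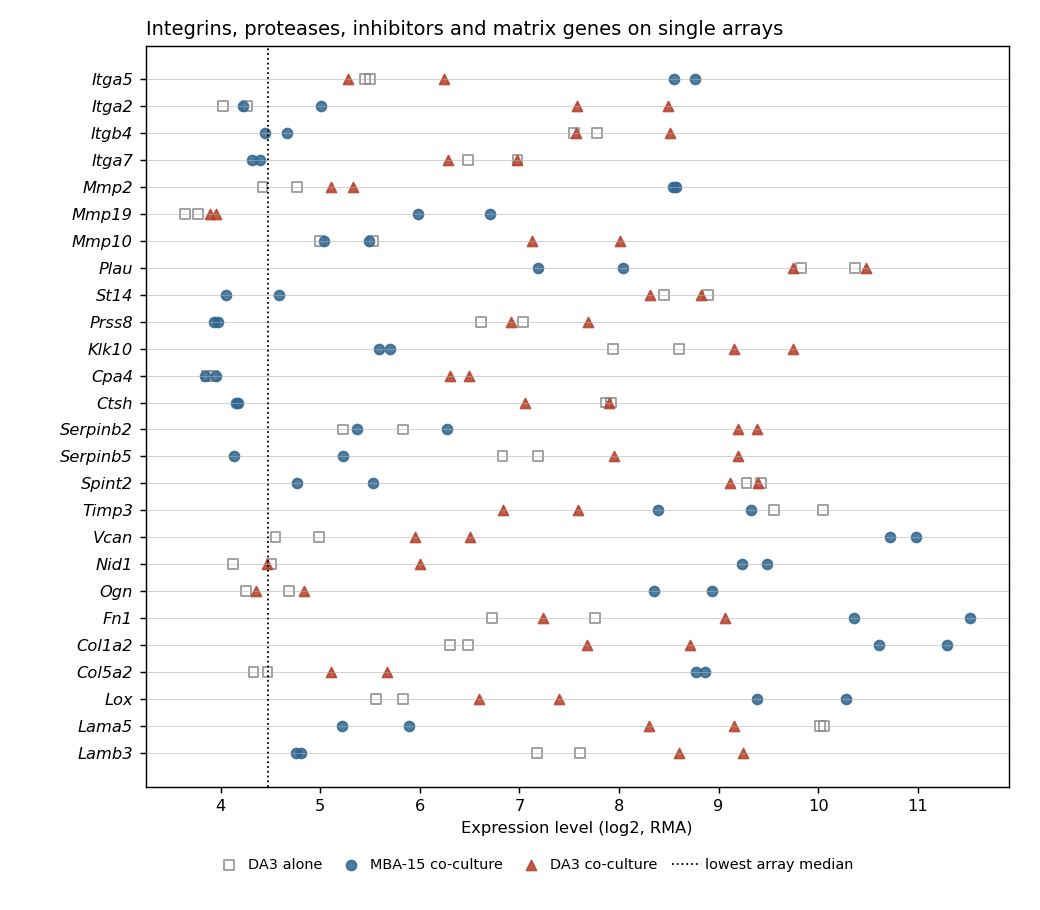
Expression level (log2, horizontal axis) of 26 named integrin, protease, inhibitor and matrix genes on the same 6 arrays, with DA3 co-culture as triangles, MBA-15 co-culture as circles and DA3 alone as open squares; the dotted line is the lowest array median, 4.479. For Itga2, Cpa4 and Serpinb2 the open squares lie with the circles and the triangles lie apart, while for Vcan the squares lie left of the triangles.

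**Figure D4:**
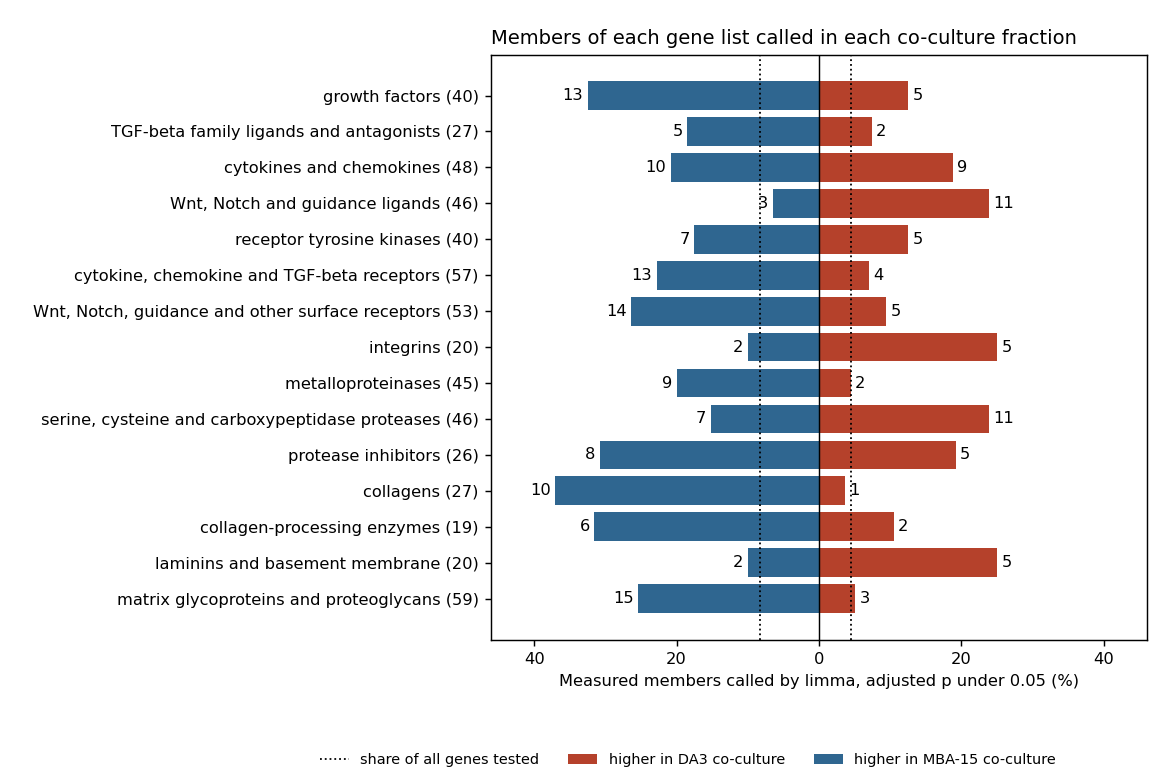
Share of the measured members of each list (number in brackets) that were called higher in DA3 co-culture (right) or MBA-15 co-culture (left), with the count at each bar; dotted lines mark the shares of all genes tested, 4.48 and 8.28%. The longest bar to the left is that of the collagens, 10 of 27, and the integrins and laminins reach furthest to the right, 5 of 20 each.

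The line difference in co-culture was then set beside that of DA3 alone from the same MBA-15 arrays. Against DA3 alone, 1290 genes (6.47%) were higher in DA3 and 1213 (6.08%) in MBA-15 co-culture, together 12.6%. Without DA3 alone array 1 these counts were 451 and 544, without array 2 they were 508 and 560, and without MBA-15 co-culture array 2 the first was 685. Both comparisons use the same MBA-15 co-culture arrays, so their calls are not independent, and the test of a narrower or wider difference is DA3 co-culture against DA3 alone, from which MBA-15 co-culture cancels. That test called 8 genes (0.0401%), 2 higher (0.01%) and 6 lower (0.0301%) in co-culture, and 2973 genes had an unadjusted p under 0.05.

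Of those 8, 2 became apart in co-culture. Itga2 was at 8.49 and 7.58 in the DA3 fraction and at 4.26 and 4.02 in DA3 alone, beside 4.22 and 5.01 in MBA-15 co-culture. The line difference was -0.48 with DA3 alone and 3.42 in co-culture, a change of 3.89 ± 0.36 (adjusted p = 0.0468). Cpa4 was at 6.49 and 6.30 against 3.92 and 3.86, and went from -0.01 to 2.50, a change of 2.51 ± 0.13 (adjusted p = 0.0077). Both thus stood at the level of the stromal fraction in DA3 alone and above it in co-culture.

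The other 6 were lower in the DA3 fraction than in DA3 alone. Stra6, which takes up retinol from its carrier protein, was at 4.10 and 4.50 against 7.71 and 8.17 in DA3 alone, and the line difference went from 3.76 to 0.12 (change -3.64 ± 0.28, adjusted p = 0.0331). Asb2, an ankyrin repeat protein of ubiquitin ligases, went from 3.18 to 0.32, Ccl20, a chemokine of epithelia, from 2.68 to 0.44, and Atp6v0e2, a proton pump subunit, from 2.49 to 0.80. Edn1, the peptide endothelin 1, was at 3.91 and 4.19 against 6.88 and 6.35 and went from 1.80 to -0.76 (change -2.56 ± 0.22, adjusted p = 0.0426). Pla1a, a phospholipase, went from 0.80 to -0.95. In both DA3 co-culture arrays these genes lay below both DA3 alone arrays, but the same arrays had served to call them.

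Within assay 3 the changes were 4.47 for Itga2, 2.64 for Cpa4, -4.07 for Stra6, -2.87 for Asb2, -2.11 for Ccl20, -2.44 for Edn1, -1.78 for Atp6v0e2 and -1.84 for Pla1a, from 1 array of each group. With assay number added to the fit as a block 0 of the 8 passed, and the adjusted p of Cpa4 was 0.0704. Without that block the MBA-15 arrays do not enter the change itself. Leaving any of them out alters only the estimate of the spread. Removing 1 array ended the call of Cpa4 for either DA3 alone array and for DA3 co-culture array 2 (adjusted p 0.152, 0.204 and 0.0593). The call of Ccl20 held only without DA3 co-culture array 1, and the other 6 were lost on every removal, with the change of Itga2 between 3.44 and 4.35 over these removals.

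The 250 bases before the start of Cpa4, chr6:30568119-30568368 on the plus strand, are shown because its change was the one that survived most removals, with TGACTCA, the reverse complement of TGAGTCA, in capitals. TGAGTCA is the run that AP-1 factors are known to bind. It occurred on either strand in 7.21% of windows of genes higher in DA3 and 4.30% of those higher in MBA-15. For genes not called it was 3.82%, and for all windows 4.46%. No bands of GC content were made for these letters. The window of Itga2 held 0 matches. The match in the Cpa4 window overlaps no CACCTG letters.
Cpa4: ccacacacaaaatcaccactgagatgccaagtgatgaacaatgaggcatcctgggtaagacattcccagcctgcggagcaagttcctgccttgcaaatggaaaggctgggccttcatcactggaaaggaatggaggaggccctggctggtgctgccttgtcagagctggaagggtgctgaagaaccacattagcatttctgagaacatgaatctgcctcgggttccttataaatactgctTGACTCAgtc

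Counted by size alone, with no test, 3333 genes were called in either comparison. The difference was smaller in co-culture by over 1 log2 unit for 198 and larger by as much for 92. With DA3 alone as the other end, 1532 of these genes lay on the DA3 side, and 148 became narrower and 45 wider. The remaining 1801 lay on the MBA-15 side, with 50 narrower and 47 wider. Over all genes the excess of narrower differences was thus mostly on the carcinoma side. The listed genes did not show this: 13 became narrower and 14 wider on the DA3 side, and 15 and 11 on the MBA-15 side. These counts were not repeated under other scalings. Of the ligands called in either, 8 of 68 were narrower and 5 wider, of receptors 5 and 6 of 66, of proteases 4 and 6 of 33, of inhibitors 2 and 2 of 14, and of matrix genes 9 and 6 of 53. Of the 1715 genes called in both comparisons, 2 changed sides, Pla1a and Pdgfc. Pdgfc, a PDGF chain, was at 8.48 and 9.19 in DA3 alone, 6.32 and 6.46 in the DA3 fraction and 7.69 and 7.52 in the MBA-15 fraction, so that the line difference went from 1.23 to -1.22, and the change had an adjusted p of 0.0796. Its call between the fractions (adjusted p = 0.0492) ended without any 1 of the co-culture or DA3 alone arrays, with an adjusted p of up to 0.154.

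Several wider differences came from genes that stood higher in the DA3 fraction than in DA3 alone. Serpinb2 was at 5.83 and 5.23 in DA3 alone and at 9.39 and 9.19 in the DA3 fraction, so the difference went from -0.29 to 3.47 (change 3.76 ± 0.37, adjusted p = 0.0544). Mmp10 was at 5.53 and 5.00 in DA3 alone (change 2.31 ± 0.35, adjusted p = 0.112), Klk6 went from 0.15 to 1.81 (adjusted p = 0.0769), Lama3 from 1.02 to 2.63 (adjusted p = 0.0906), Hbegf from 0.49 to 2.25 (adjusted p = 0.134) and Il24 from 2.07 to 4.23 (adjusted p = 0.199). None of these changes passed. On the stromal side the difference was wider where the DA3 fraction was lower than DA3 alone. Nrp1 was at 7.36 and 7.83 in DA3 alone and 5.69 and 5.47 in the DA3 fraction and went from -1.01 to -3.03 (adjusted p of the change 0.158), Col12a1 went from -1.35 to -3.47 (0.118) and Ccn4, a matricellular protein, from -0.41 to -2.20 (0.0844).

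Differences that were narrower on the carcinoma side included Tmprss2, a membrane serine protease, which was at 6.79 and 6.94 in DA3 alone and 4.05 and 4.22 in the DA3 fraction, so that 3.48 became 0.75 (adjusted p of the change 0.0702). Itgb2, an integrin chain of leukocytes, went from 2.48 to 0.77 (0.094), Pcsk6, a proprotein convertase, from 3.52 to 2.02 (0.166), Erbb3 from 3.72 to 2.27 (0.284) and Pdgfb from 3.97 to 2.60 (0.255). On the stromal side Vcan went from -6.08 to -4.63 (0.205), Fgf7 from -4.92 to -3.21 (0.139), Fstl1 from -4.78 to -3.33 (0.0906), Col1a2 from -4.56 to -2.75 (0.16), Col1a1 from -4.08 to -2.16 (0.26) and Timp1, a metalloproteinase inhibitor, from -2.30 to -0.61 (0.186). These changes did not pass.

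**Figure D5:**
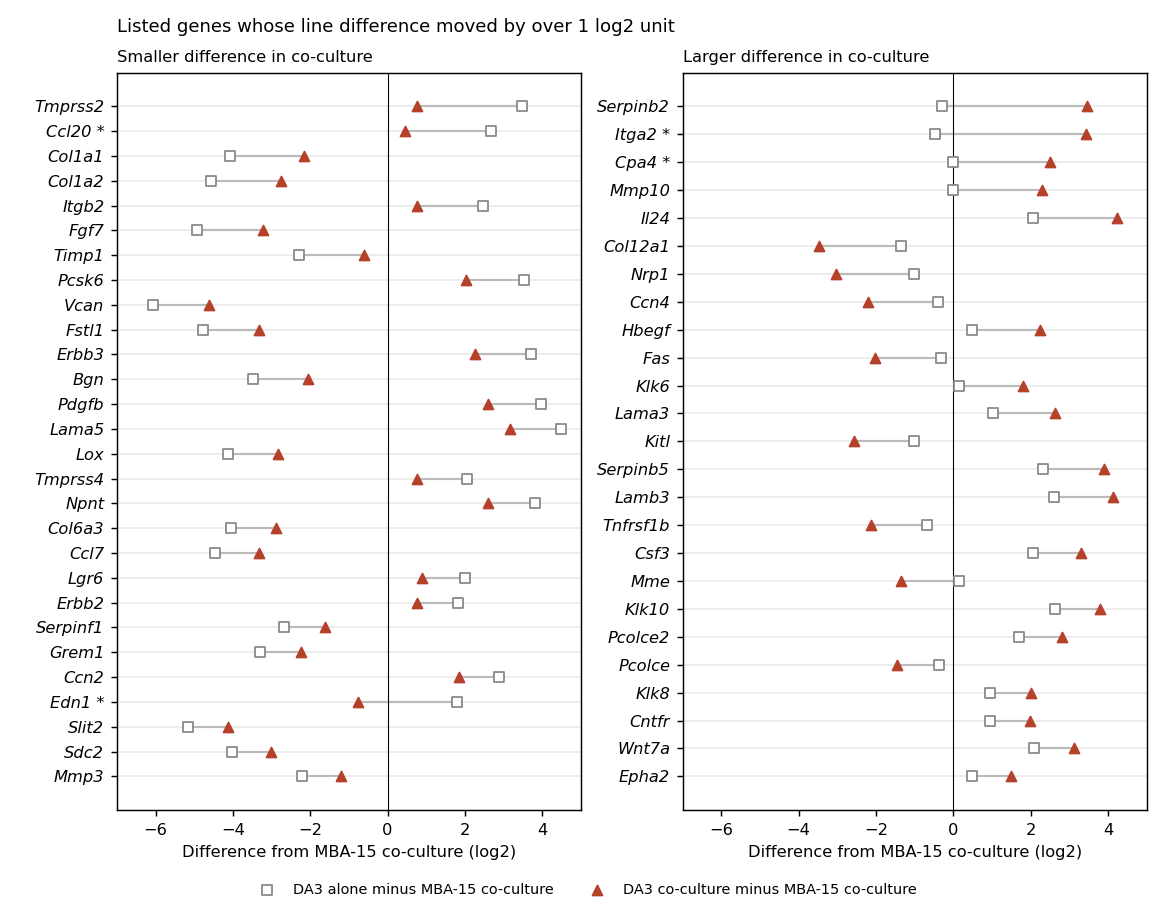
Difference from MBA-15 co-culture (log2, horizontal axis) of DA3 alone (open squares) and of DA3 co-culture (triangles) for the listed genes called in either comparison whose difference became smaller (left) or larger (right) by over 1 log2 unit; stars mark changes that passed, Ccl20 and Edn1 on the left and Itga2 and Cpa4 on the right. Tmprss2 heads the left panel, from 3.48 to 0.75, and Serpinb2 the right one, from -0.29 to 3.47.

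Beside the narrower differences of stromal genes, the stromal markers as a list stood higher in the DA3 fraction than in DA3 alone; Col1a1, Col1a2 and Fstl1 are themselves on that list. On a linear scale from DA3 alone (0%) to MBA-15 co-culture (100%), the 24 stromal markers called against DA3 alone stood at a median of 7.0% in the DA3 fraction, with quartiles of 5.2 and 12.0% and a range of -0.5 to 59.4%. The median was 9.1% on array 1 and 5.8% on array 2. The 52 genes over 4 log2 units higher in MBA-15 co-culture than in DA3 alone stood at a median of 4.9%. Fgf7 stood at 7.7%, Fstl1 at 6.5%, Col1a1 at 17.5% and Vcan at 2.6%, and Timp1 at 56.5%. The mean level of the 32 stromal markers was 6.11 and 5.76 in the DA3 fraction, 5.18 and 5.29 in DA3 alone and 8.04 and 7.73 in MBA-15 co-culture. In a bulk fraction fewer cells of a type and less RNA per cell cannot be told apart, and the part of MBA-15 cells left in the DA3 fraction in these narrower differences was not tested.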

How the data were processed

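The authors deposited 1 log2 value per probe set and array, made with RMA and Partek 6.5 per the submitters' processing notes, which give no parameters; the log2 scale was read from the range, 2.28 to 13.4. RMA scales arrays to each other, so a difference is relative to the other genes of an array. The platform annotation gave 1 symbol for 21789 of 35556 probe sets, several for 1621 and none for 12146, which stay unnamed here. A RefSeq table (GRCm38.p6) held 21698 of the 21789 under their Entrez number. Where a gene had several probe sets (999 genes), that with the highest mean was taken. All 19938 genes entered the fit, dim ones included. Levels of different genes were not compared.

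Contrasts of 4 group means were computed over the 8 arrays (limma 3.58.1, R 4.3.3; lmFit and eBayes, 4 residual and 2.6 prior degrees of freedom), two-sided, with Benjamini-Hochberg adjustment over all genes at 0.05. The fit was tested on simulated data. The arrays labelled MBA-15 alone entered only the estimate of the spread. The members, gene lists and pairs were chosen with earlier results of these data known. Named genes are, per list, up to 6 called in each direction, up to 3 with the largest difference that did not pass and up to 6 with the largest change of the line difference, plus every gene called for that change, both genes of each pair, the 10 furthest apart in each direction (leaving out predicted and clone-named loci) and Epcam. Others are named as picked later. Promoter letters came from RefSeq windows of 250 bases before each start. Alternatives were other sets of arrays, blocks for assay or replicate number, other scalings, a filter on dim genes, probe set means, another prior and the removal of each array. Counts per role under other sets of arrays were added after the data were seen.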

Additional observations from a re-analysis of the deposited data

Results flagged for a closer look

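The change of the line difference, tested as DA3 co-culture minus DA3 alone, passed the threshold for 8 genes, and each is therefore given again with its size in log2 units. Itga2 changed by 3.89 and Cpa4 by 2.51, both higher in co-culture. Stra6 changed by -3.64, Asb2 by -2.86, Edn1 by -2.56, Ccl20 by -2.24, Pla1a by -1.75 and Atp6v0e2 by -1.69, all lower in co-culture. In the MBA-15 fraction, Itga2, Cpa4, Stra6, Asb2, Ccl20, Edn1 and Atp6v0e2 stood within 1 log2 unit of 4.479, the lowest array median, on both arrays, and Pla1a was further above it at 5.65 and 5.77. None of the 8 passed with the assay number as a block.

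Epcam was measured on arrays that no comparison here uses. Those labelled MBA-15 alone had 8.45 and 9.25, above the 5.58 and 5.19 of MBA-15 co-culture, and their label is for that reason given as a label only.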

How the results depend on the processing

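No difference between the fractions changed sign among 188 called named genes over 17 other fits, and 138 of the 188 calls held with any single array removed. These fits reuse arrays that had called the 188 genes, so the kept sign adds no separate support. Fits without 1 or both of the arrays labelled MBA-15 alone also gave the same counts as each other. With only the co-culture arrays, 403 genes were higher in DA3 and 720 in MBA-15, and 590 and 1114 with assay as a block. Of all named genes, 49 lost their call between the fractions with the co-culture arrays only, among them Csf1, Nrp2, Sema3a and Sdc1, and 28 with the assay block, among them Pcolce2. Removing 1 array gave 447 to 820 higher and 1117 to 1486 lower. Against DA3 alone the ranges were 451 to 1544 and 544 to 1326. The change of the line difference was called for 2 higher and 6 lower genes. Without the arrays labelled MBA-15 alone it gave 1 and 1: the higher gene was Cpa4, and the lower gene was none of the 6. The other 7 calls were thus lost without those arrays. The change gave 0 and 0 with the assay block (2828 genes at an unadjusted p under 0.05), and 1 and 0 after quantile normalization again (1965 unadjusted). It gave 11 lower after median centring, 19 and 41 among genes above the array median on 2 or more arrays, and 46 and 88 with a trended, robust prior. Removing 1 array gave 0 to 2 higher and 0 to 1 lower, not always genes called in the main fit, with 1460 to 3472 unadjusted. The cause of these shifts was not tested.

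With a replicate block the fractions differed in 811 genes higher and 1594 lower, and the change of the line difference in 1 and 2. Of these, Cpa4 and Stra6 were called without the block too, and the remaining lower gene was not. Replicate 1 is assay 4 and replicate 2 assay 3 in each group but DA3 co-culture, where they are 3 and 5. Deviations of same-numbered arrays correlated at 0.31 between the fractions, 0.03 between DA3 co-culture and DA3 alone and 0.21 for MBA-15 co-culture with DA3 alone. Signals near the array median limit how far small levels can be read.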
